A study of Homo sapiens with 4 samples.

Results

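The 86 genes described here encode the parts of the oxidative phosphorylation system that are made from nuclear DNA. They were found by name among the 34809 gene names on the array. A gene was a member if its name began with NDUFA, NDUFB, NDUFC, NDUFS or NDUFV and a digit, with UQCR, with COX and a digit from 4 to 8, or with ATP5, or if it was SDHA, SDHB, SDHC, SDHD or CYC1. The rule uses names and no measured value, though it was set with earlier results of these data known. By name, 38 belong to complex I, 4 to complex II, 8 to complex III, 18 to complex IV and 18 to complex V. Of these, COX4NB, ATP5S and ATP5SL carry such a name but encode no subunit (RefSeq now calls them EMC8, DMAC2L and DMAC2) and are counted apart, which leaves 17 in complex IV and 16 in complex V. The array uses older names, and 22 of the 86 genes have another symbol in RefSeq, such as ATP5A1 (ATP5F1A) and UQCR (UQCR11). NDUFA4, kept under complex I for its array name, is now counted with cytochrome c oxidase (COXFA4).

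RNA came from Hep3B, a human hepatocellular carcinoma cell line, after introduction of a plasmid that expresses a short hairpin RNA. The control was the mock hairpin plasmid (shR-MOCK, 1 array), and UNC50, a Golgi membrane protein gene, was targeted with 3 hairpins, each on 1 array and named for the base of the mRNA where it binds, at 467 (shR-467), 554 (shR-554) and 749 (shR-749). All cultures, the control included, were selected with puromycin, and whether they were pools or clones was not given in the sources used here. The 3 hairpins were taken as 3 samples of UNC50 knockdown, so their spread holds hairpin differences as well as any culture difference, and the spread among mock cultures is unknown.

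Oxidative phosphorylation is the last stage of respiration in mitochondria. Complexes I and II pass electrons from NADH and succinate to ubiquinone, complex III passes them on to cytochrome c, and complex IV hands them to oxygen. Complexes I, III and IV pump protons, and complex V, the ATP synthase, uses the returning protons to make ATP. Most subunits are nuclear and are imported into mitochondria, while a small set is made inside from mitochondrial DNA. Liver cells are rich in mitochondria, and their nuclear subunit genes are read under shared factors, among them NRF1, GABP (an ETS factor also named NRF2, made of GABPA and GABPB1), YY1 and the estrogen-related receptors.

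The promoters of the members are shown first because 1 of the 2 probes for GABPB1 was lower with every hairpin, as given further on. RefSeq promoter sequence (GRCh38.p14, 250 bases before to 50 after a start site) was found for 67 of the 83 members that encode subunits, their isoforms or paralogs. The GABP motif CCGGAAGT, on either strand, lay in the promoters of 11 of the 67 (16.4%), against 6.97% of 15843 protein-coding genes. Among the 12085 of those genes on the list of genes tested, the share was 8.51%. Both shares follow for the other motifs. The NRF1 motif GCATGCGC lay in 14 (20.9%, against 4.89% and 5.65%). The YY1 motif AAGATGGC lay in 12 (17.9%, against 4.66% and 5.58%), and 30 held at least 1 of these 3. The ERR motif TCAAGGTCA lay in 1 (1.49%, against 0.335% and 0.323%), and the shorter SP1 motif GGGCGG in 41 (61.2%, against 64.3% and 71.4%). Motifs were searched on both strands and may overlap, were chosen after the array values were known, and are matches of letters, not shown sites of binding. One stretch of 90 bases is printed for each complex, from the first member by name with a GABP motif before its start site, with the motif in capitals. In GRCh38.p14 the stretches are NDUFA13 at chr19:19516135-19516224 (plus strand), SDHD at chr11:112086753-112086842 (plus strand), UQCR at chr19:1605532-1605621 (minus strand), COX5B at chr2:97645972-97646061 (plus strand) and ATP5A1 at chr18:46098298-46098387 (minus strand).
NDUFA13: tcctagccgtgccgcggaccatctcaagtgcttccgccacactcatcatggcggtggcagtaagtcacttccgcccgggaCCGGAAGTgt
SDHD: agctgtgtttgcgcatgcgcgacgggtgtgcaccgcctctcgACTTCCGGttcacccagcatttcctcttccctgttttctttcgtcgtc
UQCR: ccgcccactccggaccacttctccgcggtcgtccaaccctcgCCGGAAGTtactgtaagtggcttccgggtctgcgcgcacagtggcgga
COX5B: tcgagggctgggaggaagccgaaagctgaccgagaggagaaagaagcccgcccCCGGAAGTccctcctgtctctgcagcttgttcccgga
ATP5A1: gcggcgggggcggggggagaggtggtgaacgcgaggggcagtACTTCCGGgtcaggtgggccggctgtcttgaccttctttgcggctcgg

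UNC50, the targeted gene, was measured by 1 probe. Its processed scanner signal was 5010 on the mock array, 1050 in shR-467, 853 in shR-554 and 947 in shR-749. Values of the hairpins are given in this order from here on. After each array was scaled to its own 75th percentile of spot signals, 24%, 13.7% and 18.7% of the mock level was left, a mean log2 difference of -2.45 ± 0.40 (SD, n = 3). limma's adjusted p for UNC50 was 0.613, the smallest adjusted p of all 25133 genes tested, and an exact permutation test of 1 mock against 3 knockdown arrays cannot give a p below 0.25. Differences are therefore described by their size, their order and their intervals. The share of spots well above background ran from 67.6% to 73.6% over the 4 arrays, and the scaling percentile from 978 to 1390, with shR-554 the highest, so that raw signals of shR-554 look high until they are scaled. The liver markers fixed for the check (AFP, ALB and 8 others) were all well above background on every array. After knockdown, 4 of the 10 were at least 1.5-fold higher on average, against 2.28% of all genes tested, and all 10 means were above 0. Of the 11 leukocyte, endothelial and fibroblast markers, 2 (COL1A1 and COL3A1) were not well above background on any array. In RNA from whole cultures, fewer cells of a kind and less RNA per cell cannot be told apart.

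The members as a group lay close to the mock array. Of the 86 genes, 84 passed the filter (a signal clear of the background in the mock, or else in each of the 3 knockdown arrays), and 82 were well above background on all 4. All 82 had a mean difference of less than 1.25-fold, a range met by 79.8% of the 21487 genes well above background on all 4 arrays. The limit of 1.25-fold was not planned and lies just above the largest of the 82, ATP5D at 1.24-fold. Within 1.2-fold lay 97.6% of the 82, against 72.1% of those genes, and within 1.1-fold 69.5%, against 45.6%. Most members were bright: 79 lay above the 75th percentile on every array, and 100% of these 79 were within 1.25-fold, against 88.8% of all 6762 genes that bright. The median of the mean log2 differences was -0.011 over the 84 members and -0.027 over all genes tested. By hairpin the members' median was 0.047, -0.019 and -0.046, and that of all genes was 0.033, -0.040 and -0.055. These are descriptions, and no test set the members against other genes.

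The spread between hairpins was described in the same way. The SD of the 3 log2 differences of a member had a median of 0.119, against 0.25 over all genes tested and 0.156 over the genes above the 75th percentile. The size of the mean log2 difference, without its sign, had a median of 0.080 for members, 0.174 for all genes and 0.120 for the bright genes. Brightness moves with both values, and its part in the smaller spread was not tested beyond these counts.

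**Figure D1:**
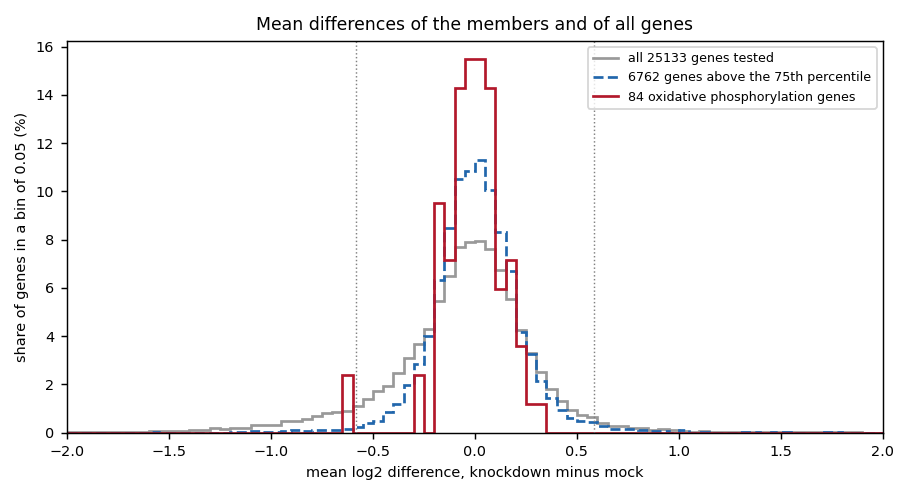
Distribution of the mean log2 difference (knockdown minus mock, x axis) as the share of genes per bin of 0.05 (y axis, %), for all genes tested (grey), genes above the 75th percentile on all 4 arrays (blue dashes) and the members (red). Dotted lines mark 1.5-fold. The members pile up near 0, and the 2 beyond the left dotted line are dim on the arrays.

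Counts past the study's fold rule were small. The fitted mean passed 1.5-fold for 2 of the 84 members, against 9.94% of all genes tested. Both (NDUFA4L2 and COX7A1) read lower on average, but they passed the filter through the mock array alone, where their unscaled signals were highest. After scaling, COX7A1 read slightly higher with shR-467 than on the mock array (a log2 difference of 0.07). The dim knockdown signals of both genes allow no 1.5-fold change to be claimed. Over all genes, 7.65% were at least 1.5-fold lower and 2.28% at least 1.5-fold higher. Among the 21487 genes well above background on all 4 arrays, where 0 of 82 members passed, 627 were lower and 502 higher (5.25% in all), and among the 6762 bright genes 2.17% passed, with 0 of 79 members. Past 1.5-fold in one direction with every hairpin there were 0 members, against 1.75% of all genes. With a single hairpin, 0 members passed 1.5-fold for shR-467 (14% of all genes), 2 for shR-554 (20.3%) and 0 for shR-749 (15.8%). The mock array lay above all 3 knockdown arrays for 17 of the 84 members (20.5% of all genes) and below all 3 for 18 (17.5%), so these shares were near the background. The hairpins share the mock array, and no test between them was made.

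limma called 0 members and 0 genes in all (0%) at an adjusted p under 0.05. At an unadjusted p under 0.05 limma called 0 members, against 1.52% of all genes, and the methods' t-test called 2 of 84 (NDUFB1 and NDUFA13), against 646 genes in all (2.57%), with 0 left after Benjamini-Hochberg adjustment. In limma the smallest unadjusted p of a member was 0.135, for ATP5D. The 95% intervals of the 82 members well above background on all 4 arrays all took in 0. Their half-widths ran from 0.32 to 1.00 on the log2 scale, with a median of 0.41. For 62 of the 82 the whole interval lay within 1.5-fold in either direction, and for 81 within 2-fold. These intervals are not adjusted for the number of genes.

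**Figure D2:**
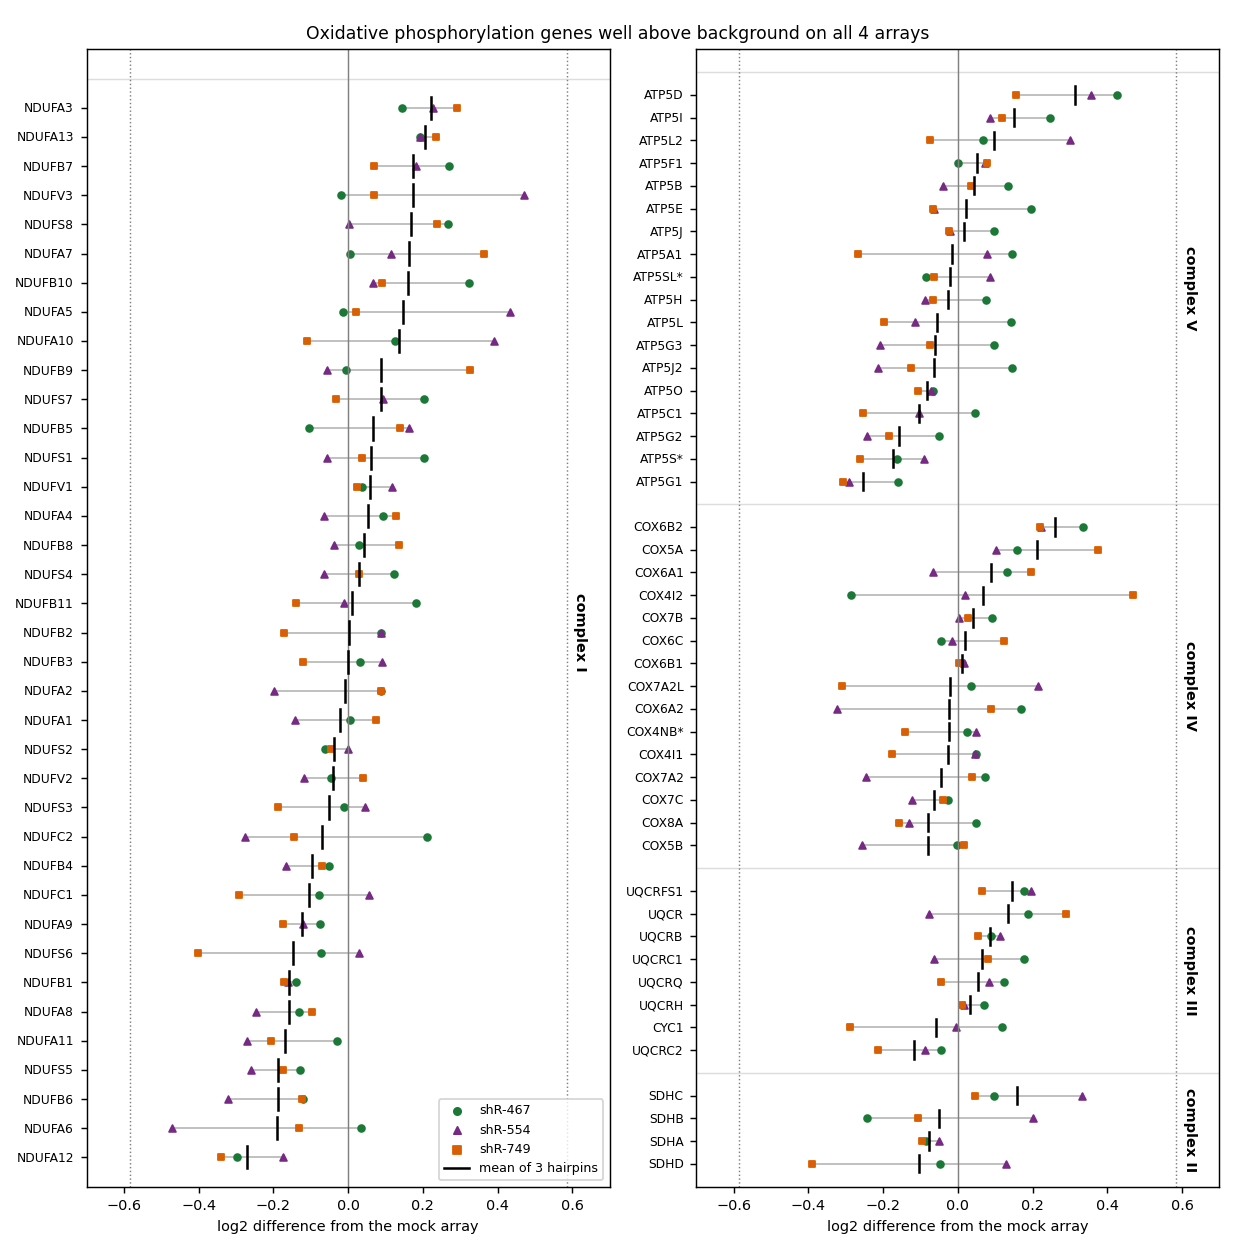
Log2 difference from the mock array (x axis) for each of the 82 members well above background on all 4 arrays, grouped by complex, with shR-467 (circles), shR-554 (triangles), shR-749 (squares) and their mean (black bars). Dotted lines mark 1.5-fold, and asterisks mark the 3 genes that encode no subunit. No symbol reaches 1.5-fold, and the symbols of most members lie on both sides of 0.

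Complex I takes electrons from NADH, and its 38 genes had a median difference of 0.001. The 7 core subunits carry the flavin and the iron-sulfur clusters or bind ubiquinone, and their mean log2 differences ran from -0.05 to 0.17. NDUFS8, which holds a pair of iron-sulfur clusters near the ubiquinone site, was the highest of these, at 0.27, 0.00 and 0.24. NDUFV1, the subunit that binds NADH and flavin, gave signals of 58445 on the mock array and 52350, 78640 and 59893 with the hairpins. On the scaled log2 scale these were differences of 0.04, 0.12 and 0.02, all above the mock and all small.

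The 30 accessory subunits ran from -0.27 to 0.22, a wider range than that of the 7 core subunits, but a range widens with the number of genes. The median size of the mean log2 difference, without its sign, was 0.14 for accessory and 0.06 for core subunits. The core probes were printed in 2 spots each and most accessory probes in 1, and the part of this in the spread was not tested. NDUFA3, a small membrane subunit, had signals of 17500 (mock), 16900, 25400 and 21600, and scaled differences of 0.15, 0.23 and 0.29, with a mean of 0.22 ± 0.07 (SD, n = 3). NDUFA13, also known as GRIM-19 for its part in interferon-induced cell death, had differences of 0.19, 0.19 and 0.24. NDUFB7, on the intermembrane side of the membrane arm, had a mean of 0.17 ± 0.10 (SD, n = 3). In all 3 the mock array was the lowest, and limma's 95% interval for NDUFA3 ran from -0.16 to 0.60.

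At the other end stood NDUFA12, a subunit of the peripheral arm. Its signals were 9460 on the mock array and 6720, 10400 and 7540 with the hairpins, or differences of -0.30, -0.17 and -0.34 (mean -0.27 ± 0.09, SD, n = 3; interval -0.69 to 0.15). Its probe, at chr12:95387952-95388011 in hg19, had a partner at chr12:95365110-95365169 that gave -0.20, -0.09 and -0.19. Both probes had the mock array as the highest. NDUFA6 (mean -0.19 ± 0.26, SD, n = 3) owed its place to shR-554, at -0.47, beside 0.04 and -0.13. NDUFB6 was at -0.19 ± 0.11 (SD, n = 3), with -0.12, -0.32 and -0.12. Several accessory subunits had 1 hairpin apart from the others, all under 1.5-fold, among them NDUFV3 (0.47), NDUFA5 (0.43) and NDUFA10 (0.39) with shR-554 and NDUFS6 (-0.40) with shR-749, chosen after their values were seen.

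NDUFS5 was printed in 10 spots, which shows how closely an array repeats itself. On the scaled log2 scale it read 6.67 ± 0.03 on the mock array (SD over 9 spots), and 6.54 ± 0.03, 6.41 ± 0.05 and 6.49 ± 0.04 on the arrays of the hairpins (SD over 10 spots each). The lowest mock spot, at 6.63, lay above the highest spot of any knockdown array, at 6.59. Over the 6 members printed in 10 spots (ATP5SL, COX4NB, COX7C, NDUFS5, NDUFS6 and UQCRC2) the SD between spots of one array ran from 0.018 to 0.111. Spots share 1 RNA sample, so this is the error of printing and reading only, and the spread between cultures is not in it. NDUFS6 shows the difference: shR-749 read 3.8 ± 0.03 (SD over 8 spots) while the mock read 4.2 ± 0.06 and shR-554 read 4.23 ± 0.06 (SD over 10 spots each).

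**Figure D3:**
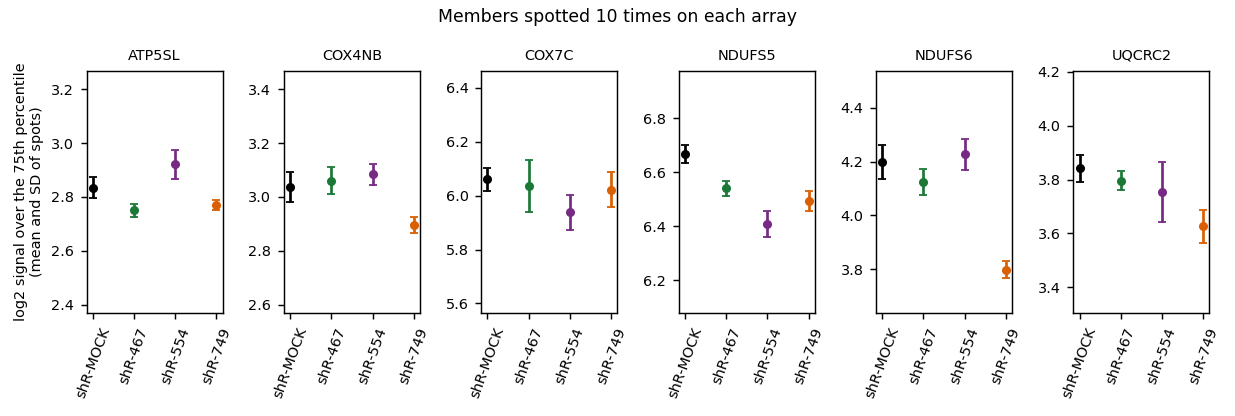
Scaled log2 signal (log2 over the 75th percentile of the array, y axis) of the 6 members printed in 10 spots, for each of the 4 arrays, as the mean and SD over unmarked spots. Each panel spans 0.9 log2 units around its own centre. NDUFS5 is highest on the mock array, and NDUFS6 is low with shR-749 alone.

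Complex II, succinate dehydrogenase, is also an enzyme of the citric acid cycle and has no subunit from mitochondrial DNA. SDHA, the flavoprotein that oxidises succinate, gave signals of 17600 (mock), 14500, 21100 and 16600, or differences of -0.08, -0.05 and -0.10. SDHB, which carries the iron-sulfur clusters, gave 6221, 4589, 8875 and 5831, or -0.24, 0.20 and -0.11. The membrane anchor SDHC gave 12100, 11300, 18900 and 12600, or 0.10, 0.33 and 0.05. The other anchor, SDHD, gave 3950, 3340, 5360 and 3040, or -0.05, 0.13 and -0.39. The mock array was the highest for SDHA and the lowest for SDHC, and lay inside the knockdown range for SDHB and SDHD. The means were -0.08, -0.05, 0.16 and -0.10 for SDHA, SDHB, SDHC and SDHD, and each 95% interval took in 0 (that of SDHD ran from -0.68 to 0.48). The SDHA probe used is placed on chromosome 3, and the gene lies on chromosome 5. The 3 further SDHA probes had means of -0.11 (no position), -0.04 (chr5:1576667-1576726 in hg19) and 0.11 (chr5:1589363-1589422). Whether these probes read SDHA or a copy of it was not tested. SDHC was less even, with means of -0.09 and 0.15 on its other probes. The SDHD probe used is placed on chromosome 1, and the gene lies on chromosome 11. An SDHD probe on chromosome 11 gave 0.01, 0.16 and -0.29, a mean of -0.04. A further SDHD probe on chromosome 1 had a mean of -0.07.

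**Figure D4:**
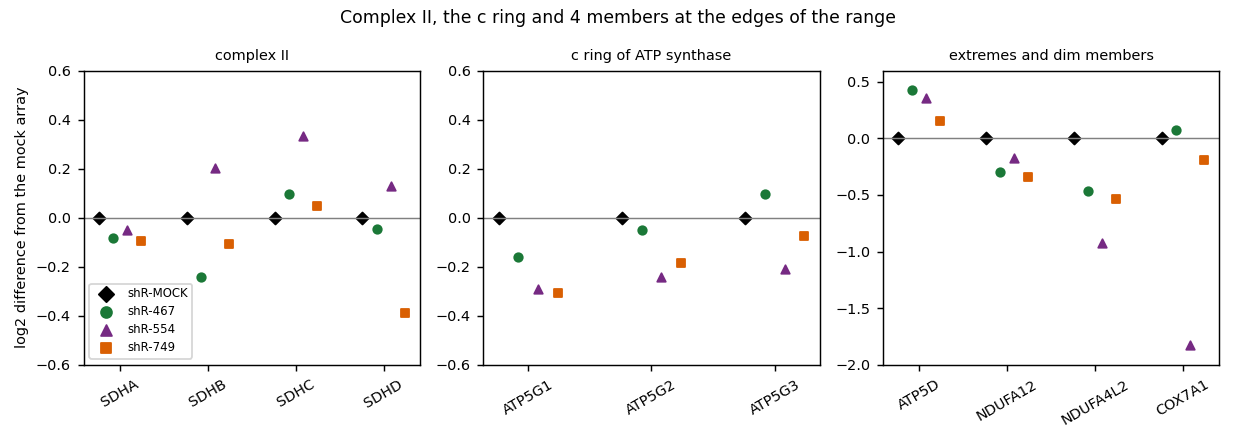
Log2 difference from the mock array (y axis, mock at 0 as a diamond) for complex II, for the 3 c-ring genes of ATP synthase, and for ATP5D, NDUFA12, NDUFA4L2 and COX7A1, with 1 symbol per hairpin. The third panel has a wider axis. shR-554 is the highest of the hairpins for all 4 complex II genes, and COX7A1 rests on a low shR-554 signal.

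Complex III moves electrons from ubiquinol to cytochrome c. Its 8 members had a median of 0.059, with 6 means above 0 and 2 below. UQCRFS1, the Rieske iron-sulfur protein, was the highest at 0.18, 0.20 and 0.06 (mean 0.15 ± 0.07, SD, n = 3). Its probe is placed on chromosome 22, and the gene lies on chromosome 19. UQCR followed at 0.13 and UQCRB, which helps bind ubiquinone, at 0.09. UQCRC2, a core protein of the matrix side printed in 10 spots, was the lowest at -0.05, -0.09 and -0.21. CYC1, cytochrome c1, was at -0.06 ± 0.21 (SD, n = 3), and UQCRH, the hinge protein, at 0.03 ± 0.03 (SD, n = 3). UQCRFS1, UQCRB and UQCRH had the mock array as the lowest, UQCRC2 as the highest, and every interval took in 0.

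Complex IV, cytochrome c oxidase, has subunits with a broadly expressed form and a form of certain tissues. COX4I1, the broad form of the regulatory subunit, had a mean of -0.03 ± 0.13 (SD, n = 3). COX4I2, the form induced by low oxygen, gave low signals of 80.5 (mock), 57.6, 101 and 112, with differences of -0.29, 0.02 and 0.47 that do not point one way. COX6A1 had 0.09 ± 0.14 and its muscle form COX6A2 -0.02 ± 0.26 (SD, n = 3 each). COX7A2 had -0.04 ± 0.18, COX7A2L, a factor of supercomplexes, -0.02 ± 0.27, COX7B 0.04 ± 0.05 and COX8A -0.08 ± 0.11 (SD, n = 3 each). COX7C, a small subunit printed in 10 spots, had -0.06 ± 0.05 (SD, n = 3), with the mock array the highest. COX6B1 was nearly the same on all arrays, at 0.01, 0.02 and 0.00.

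The tissue forms were mostly dim. COX7B2 and COX8C, known from testis, were not well above background on any array (signals of 4.2 to 5.77 and of 4.51 to 6.82) and have no difference to report. COX7A1, the heart and muscle form, gave 19.2 on the mock array and 17.6, 6.72 and 16.9 with the hairpins. It passed the filter through 1 of its 2 mock spots, and the fitted mean of -0.65 ± 1.03 (SD, n = 3) rests on shR-554. No fold is given, as the knockdown signals were not well above background and the bound they allow is below 1. NDUFA4L2, the paralog of NDUFA4 known to be induced by low oxygen, gave 27.3 on the mock array and 17.3, 17.8 and 19 with the hairpins. Its knockdown signals were not well above background either. The bound they allow is 1.07-fold lower, but it rests on 1 mock spot and makes no allowance for noise. The fitted mean of NDUFA4L2, -0.64 ± 0.25 (SD, n = 3), is that of dim spots. limma's interval for it ran from -2.25 to 0.97, so a lower level was not shown. NDUFA4 itself was at 0.05 ± 0.10 (SD, n = 3).

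The other extremes of complex IV were COX5A at 0.21 ± 0.14 (SD, n = 3) and COX5B, which binds zinc, at -0.08 ± 0.15 (SD, n = 3). The COX5A probe is placed on chromosome 14, and the gene lies on chromosome 15. COX6B2, the testis form of COX6B1, gave the highest mean of the complex, with signals of 4100 (mock), 4520, 5940 and 4820 and a mean difference of 0.26 ± 0.07 (SD, n = 3). Its probe is doubtful: the array annotation places it on chromosome 6 and the gene lies on chromosome 19. The other COX6B2 probe, on chromosome 19, gave 101 on the mock array and 209, 47.1 and 63.5 with the hairpins, a mean of -0.28 ± 1.37 (SD, n = 3).

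Complex V turns proton flow into ATP. ATP5D, the delta subunit of the central stalk, had the largest mean difference of the 82 members well above background, with signals of 9427 (mock), 11050, 14988 and 10600. These were differences of 0.42, 0.36 and 0.16, a mean of 0.31 ± 0.14 (SD, n = 3; interval -0.12 to 0.75), with the mock array the lowest. ATP5A1 and ATP5B, the alpha and beta subunits of the catalytic head, were at -0.02 ± 0.22 and 0.04 ± 0.09 (SD, n = 3 each). ATP5C1, the gamma subunit that turns inside that head, was at -0.10 ± 0.15 (SD, n = 3). ATP5I of the membrane part was at 0.15 ± 0.09 (SD, n = 3), and ATP5L2, a paralog of ATP5L, at 0.10 ± 0.19 (SD, n = 3). The 4 peripheral stalk members ran from -0.08 to 0.05.

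The c ring is the rotor that protons turn, and ATP5G1, ATP5G2 and ATP5G3 encode the same mature protein. ATP5G1 gave 14600 (mock), 11400, 14800 and 11900, or -0.16, -0.29 and -0.31. Its probe is placed on chromosome 14, and the gene lies on chromosome 17. ATP5G2 gave 58900, 49700, 61800 and 52300, or -0.05, -0.24 and -0.18. ATP5G3 gave 122000, 114000, 131000 and 117000, or 0.10, -0.21 and -0.07. The mock array was the highest for ATP5G1 and ATP5G2 and inside the range for ATP5G3. The means were -0.25 ± 0.08, -0.16 ± 0.10 and -0.06 ± 0.15 (SD, n = 3 each), and the interval of ATP5G1 ran from -0.65 to 0.15.

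The chromosomes of the probes were compared with those of the genes, and places within a chromosome were not compared. Of the 86 probes used, 59 are placed by the array annotation (hg19) on the chromosome of their gene, 18 have no position and 9 are on another chromosome. Those 9 belong to ATP5G1, ATP5J2, COX5A, COX6A1, COX6B2, NDUFA9, SDHA, SDHD and UQCRFS1. Their median difference was -0.065, against 0.011 for the 57 on the gene's own chromosome that passed the filter and -0.051 for the 18 with no position. Whether such a probe reads the gene, a copy elsewhere or both was not tested, and no transcript annotation was used here to place a probe in an exon or intron. The first 30 of the 60 bases are printed for 3 of these probes because values above rest on them. They are ATP5G1 at chr14:31789763-31789822, UQCRFS1 at chr22:40272158-40272217 and SDHA at chr3:195689988-195690047, while RefSeq puts the genes on chromosomes 17, 19 and 5.
ATP5G1: ttattcatttctccagctctgatccgctgt
UQCRFS1: tgtcacctcaggagacttatttgagaggaa
SDHA: ctttgtcccttgcttcatttttgtgacaag

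Among the members, 14 were read by more than 1 probe clear of the background on every array. The gap between the highest and the lowest mean of a gene's probes had a median of 0.114 and stayed under 0.25 for 12 of the 14. The exceptions were COX6B2 (0.54) and NDUFC2. NDUFC2 had -0.07 ± 0.25 on the probe used and 0.42 ± 0.57 on the other (SD, n = 3 each), where shR-749 alone stood at 1.07. Probes of 1 gene share their RNA samples and are not replicates.

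**Figure D5:**
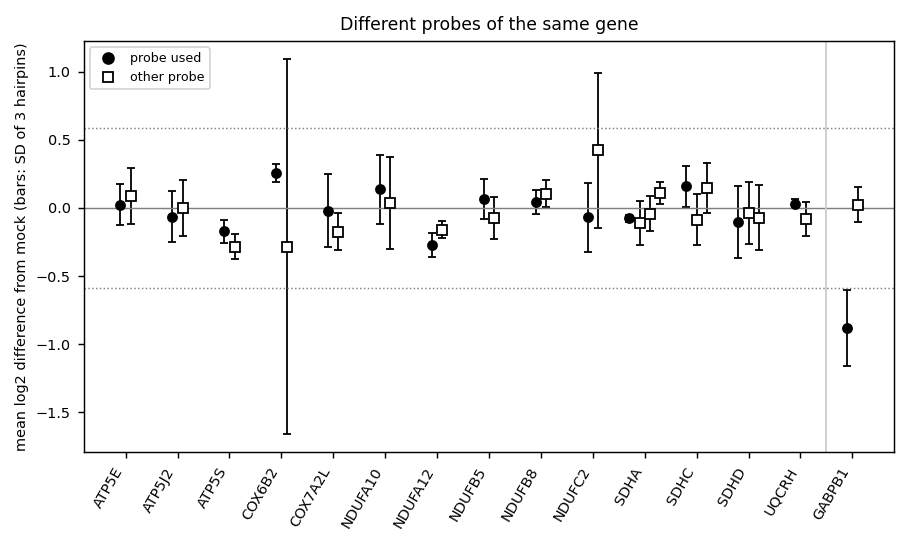
Mean log2 difference from the mock array (y axis, with bars for the SD of the 3 hairpins) for probes of GABPB1 and of 14 members. These 14 were read by several probes well above background on every array. Filled circles are the probes used, open squares the others, and dotted lines mark 1.5-fold. COX6B2 and NDUFC2 have probes that disagree, and of the GABPB1 probes only one lies below the dotted line.

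Other genes of the pathway were taken from lists. Beside the counts below, 2.28% of all genes tested were at least 1.5-fold higher on average and 7.65% lower. Of 40 assembly factors that passed the filter, 1 was at least 1.5-fold higher on average and 1 lower. The higher one was COX19, which helps copper reach cytochrome c oxidase (0.76, 0.49 and 1.41), and the lower one FAM36A, now COX20, a chaperone of the COX2 subunit (-0.20, -1.76 and -0.60). A second FAM36A probe, also well above background on all 4 arrays, gave 0.02, -0.97 and -0.26, a mean of -0.41 that does not reach 1.5-fold. Among 14 carriers and exchangers, 13 citric acid cycle genes and 73 genes of the mitochondrial ribosome, 0 passed 1.5-fold in either direction. Their medians were -0.07, 0.05 and -0.03. Of 81 cytosolic ribosome genes, 2 were higher and 1 lower. The median of these 81 was 0.08, with 66 means above 0, against 3448 of the 6762 genes above the 75th percentile. The mock array lay below all 3 knockdown arrays in 36 of the 81. That held for 17.5% of all genes tested and for 1558 of the 6762 bright genes. Subunits that the array lists under other names (UCRC, NDUFAB1, USMG5 and C14orf2) had means from -0.18 to -0.07 on their brightest probes and were added after the values were seen. UCRC was uneven, at 0.14, -0.70 and 0.06 on that probe and with means of 0.53 and 0.00 on its other probes. No gene of mitochondrial DNA was found under the names searched, so those subunits are not analysed here.

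Of 13 regulators of the nuclear subunit genes, 1 passed 1.5-fold, against 9.94% of all genes tested. GABPB1, the subunit of GABP that activates transcription, gave 2009 on the mock array and 991, 1100 and 1305 with the hairpins. These were differences of -0.82, -1.18 and -0.64, a mean of -0.88 ± 0.28 (SD, n = 3), with every knockdown array below the mock. limma's adjusted p was 0.9998. A second GABPB1 probe, annotated to another transcript, gave 553 (mock), 444, 728 and 603, or -0.12, 0.08 and 0.11. The 2 probes disagree, and which reads the main transcript was not tested. GABPA, which binds the DNA motif, was at -0.06, -0.29 and -0.43. The 11 members with a GABP motif in the promoter had a median difference of 0.017 and ran from -0.10 to 0.21, and the 54 without had a median of -0.014. NDUFA13, SDHD, UQCR, COX5B and ATP5A1, whose promoters are printed above, were at 0.21, -0.10, 0.13, -0.08 and -0.02.

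For the factors of the other motifs the values were as follows. NRF1 was at 0.19, 0.14 and -0.06, and its interval ran from -0.66 to 0.84. The 14 members with an NRF1 motif had a median of -0.088 and ran from -0.19 to 0.15, against a median of 0.001 for the 51 without. YY1 was at 0.12 ± 0.08 (SD, n = 3), and the 12 members with its motif had a median of 0.035. ESRRA, an estrogen-related receptor, was at -0.09, 0.25 and -0.24. PPARGC1A, the coactivator of mitochondrial biogenesis, gave low signals of 90 (mock), 51.4, 123 and 97.4, with a mean of -0.12 ± 0.43 (SD, n = 3). TFAM, which packs and transcribes mitochondrial DNA, was at 0.00, 0.30 and 0.40 on the probe used, and its second probe had a mean of 0.07 ± 0.08 (SD, n = 3).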

How the data were processed

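RNA of 4 Hep3B cultures was measured on 1-colour Agilent arrays, 1 for the mock hairpin and 1 for each hairpin against UNC50. Groups came from the sample labels, and nothing says that a culture was repeated, so p-values measure only the spread between these 3 hairpin samples, which may be partly technical. The authors deposited each array's scanner output (Agilent Feature Extraction 10.7.1.1), in which the intensity of a spot is given raw, as background and as a background-subtracted signal with 3 significant digits. The authors also deposited a table of log2 values, whose normalization is not given in the sources used here. It was used as an alternative.

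Each log2 signal was set against the array's 75th percentile over spots other than controls. Outlier-marked spots were dropped, and repeat spots of a probe were averaged. A probe was well above background when at least 0.5 of its spots were. The filter left 25133 genes, each read from its probe with the highest mean. Bounds set the mock mean against, for each knockdown array, the dimmest signal that still counted as well above background there, or the probe's own where higher. Differences were tested with limma 3.58.1 (mean-variance trend, Benjamini-Hochberg adjustment over all genes, 2 residual and 4.97 prior degrees of freedom), which assumes that the mock array varies like the hairpins. RefSeq names (GRCh38.p14) were found for all 86 members. Python 3.11.15 and R 4.3.3 were used. In data simulated for this comparison, with 200 of 25133 genes changed 4-fold, 198 had the right sign, 197 passed 1.5-fold and limma called 0, while 3661 unchanged genes also passed 1.5-fold. The noise of each gene was drawn with its SD between hairpins. In the measured data 2497 of 25133 genes passed 1.5-fold, fewer than in the simulation, so the simulated counts may not carry over.

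Members, lists and motifs were chosen with earlier results of these data known. The text names UNC50, complex II, the 3 highest and 3 lowest members of each complex, members past 1.5-fold, isoform groups, regulators TFAM, NRF1 and PPARGC1A, and list members past 1.5-fold with every hairpin. Other names were added with their values in view. Alternatives are given in the closing section.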

Additional observations from a re-analysis of the deposited data

How the results depend on the processing

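The number of members at least 1.5-fold changed on average, 2 as reported (NDUFA4L2 and COX7A1, both dim), became 0 with quantile normalization, with normexp background correction (offset 50) and quantile normalization, with the authors' processed values, with low signals raised, with the filter on all 4 arrays, with a threshold of 2-fold, with 1.5 read on the log2 scale, and, chosen after seeing the data, among genes above the 75th percentile on all 4 arrays. Without one hairpin it ran from 0 (without shR-554) to 2. Raising low signals moved the median of all unfiltered genes to 0.12. The number past 1.5-fold with every hairpin was 0 in every alternative run. Members with the mock array above the others numbered 17, and 21 to 30 with one hairpin left out (30 without shR-467), and members with it below numbered 18, and 22 to 30 with one left out (30 without shR-554, 28 without shR-749), since 2 arrays are easier to lie outside of than 3. The median of complex I was 0.029 with normexp and ran from -0.029 (without shR-467) to 0.013 with one hairpin left out, and that of complex IV from -0.048 to 0.039 (without shR-554). Over all alternatives the median of all members stayed between -0.036 and 0.016, that of complex III stayed above 0, and those of complexes I, II, IV and V changed sign, so no direction is given for them. The cause was not tested.

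limma called 0 members in all its alternatives, and over all genes 4 with normexp, and from 0 to 2 with one hairpin left out (2 without shR-554, 1 without shR-749). The largest mean difference of the 82 members well above background on all 4 arrays was at most 1.31-fold in any alternative (without shR-749). With normexp, and without shR-749, 81 of the 82 stayed within 1.25-fold. Of 562 values of single named genes, 551 moved by less than the SD between hairpins. Much of this count was fixed in advance, so it is no measure of stability. Leaving out 1 hairpin cannot move a mean that far, and the filters leave a gene's own value unchanged. Among the 11 values that moved further, the mean over a gene's probes gave -0.43 for GABPB1 and -0.01 for COX6B2. A block for slide or scan could not be fitted, as all arrays share both. No paired analysis was possible because there was 1 mock array and the replicate numbers only name samples. Signal over background limits the dim isoforms, and 4 arrays limit the rest.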
